A study of Mus musculus with 8 samples.

Results

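The genes examined were those of the cytosolic ribosomal proteins, the protein subunits of the ribosomes that translate nuclear-encoded mRNA. They were chosen by symbol and by measured level, as genes whose symbol begins with Rps, Rpl or Rplp followed by a number (with at most one trailing a, x, y or l and no pseudogene suffix) and whose mean over all 8 libraries was 10 TPM or more (TPM is a transcript's share of the library after correction for its length). Of 55414 genes in the deposited tables, 82 matched the name pattern and 76 met the level: 30 small subunit (Rps) and 46 large subunit (Rpl and Rplp) genes. Because measured TPM values chose the members, their levels are described without a test. The threshold fell in a wide gap, with Rpl39 at a mean of 41.9 TPM and Rpl27a at 44.2 TPM nearest above it, and Rpl6l at 0.474 TPM and Rpl3l at 0.113 TPM nearest below it. The other genes below it were Rps4l, Rpl32l, Rpl39l and Rpl10l. All 76 members passed the count filter of the test across genes.

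RNA-seq was done on mpkCCD cells, a mouse cortical collecting duct line that originated in SV-PK/Tag transgenic animals. A single subclone was grown, so both groups represent one clone. Tolvaptan plus dDAVP (4 libraries) was compared with dDAVP alone (4 libraries), where dDAVP is an agonist of the vasopressin V2 receptor, tolvaptan is an antagonist of that receptor, and dDAVP was present in both groups. The labels give neither dose nor duration. They are also silent on whether replicates were separate cultures, and the p-values rest on a spread between libraries that may be technical only. Total expected counts per library were 41179670 to 49720488 for tolvaptan plus dDAVP and 46189118 to 56203831 for dDAVP alone. The labelled line carried its markers: 9 of 12 principal cell markers averaged 1 TPM or more and summed to 9443 to 11944 TPM per library with tolvaptan plus dDAVP and 9037 to 11282 TPM with dDAVP alone, whereas 0 of 6 intercalated cell, 1 of 6 proximal tubule, 0 of 6 loop and distal tubule and 0 of 8 stromal, endothelial and immune markers reached that level.

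Each ribosome carries one copy of nearly every ribosomal protein, so the genes form a family whose products are needed in matched amounts. Their mRNAs are short and abundant, and most begin with a C and a run of pyrimidines (the 5′ terminal oligopyrimidine, or TOP, motif) through which mTORC1, a growth-regulating kinase complex, controls their translation. Several have duplicated or processed copies elsewhere in the genome. These copies bear on how short reads are assigned.

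The start of transcription is where the family shares a sequence feature, so it is shown for members on which the results turn. RefSeq start sites (GRCm38.p6) were matched for 56 of the 76 members. Each window runs from 15 bases before the annotated start through the first 15 transcribed bases, on the gene's strand. Runs of a C followed by at least 4 C or T that begin within 10 bases of the start were sought. Capitals mark only the longest such run in a window, and shorter ones stay in lower case.
Rpl35: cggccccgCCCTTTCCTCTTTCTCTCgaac
Rpl28: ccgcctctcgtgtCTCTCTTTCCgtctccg
Rplp2: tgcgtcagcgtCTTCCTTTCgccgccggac
Rps27: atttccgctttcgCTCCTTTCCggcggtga
Rps18: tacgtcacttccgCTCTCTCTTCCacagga
Rpl39: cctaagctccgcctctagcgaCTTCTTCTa
Rplp0: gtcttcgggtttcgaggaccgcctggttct
Rps15: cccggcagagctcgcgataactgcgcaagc

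The windows lie at chr2:39005117-39005146 on the minus strand for Rpl35, chr7:4792950-4792979 on the plus strand for Rpl28, chr7:141447636-141447665 on the plus strand for Rplp2 and chr3:90213634-90213663 on the minus strand for Rps27. Those of the other genes lie at chr17:33955651-33955680 on the minus strand for Rps18, chrX:37085208-37085237 on the minus strand for Rpl39, chr5:115559452-115559481 on the plus strand for Rplp0 and chr10:80292416-80292445 on the plus strand for Rps15. A run of this kind began within 10 bases of a start in 35 of 56 members (62.5%), against 34.4% of 27025 genes in the RefSeq table. Some genes had several annotated starts, and here and below a gene was counted if any of its starts had the match. With a C and at least 7 C or T the share was 41.07% of members and 9.43% of all genes. At the annotated first base itself, a C and at least 4 C or T stood in 13 members (23.21%), against 3.01% of all genes. Neither Rplp0 nor Rps15 had such a run within 10 bases of the annotated start. The starts used in these cells were not measured and may differ from the annotated ones. CCGGAAG on either strand of the 300-base window was found in 41.07% of members and 9.93% of all genes, and CTTTCC, which can lie inside a pyrimidine run, occurred within 25 bases of the start in 17.86% of members and 2.92% of all genes on the sense strand. The sense-strand letters TATAAA were found in the 50 bases before the start in 0 of 56 members and 3.15% of all genes, and CACGTG, a palindrome, in the 300-base window of 10.71% of members and 8.09% of all genes. These matches describe letters only. The members were spread over 19 chromosomes, with 14 of the 76 on chromosome 7 and 4 on the X chromosome.

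Although their products assemble in matched amounts, the transcripts differed widely in mean TPM, with Rpl39 at 41.9 TPM and Rps15 at 1050.2 TPM. Small subunit genes had a median of 248 TPM and large subunit genes a median of 238 TPM, and 68 of the 76 members averaged 100 TPM or more. By comparison, the 8992 genes of the whole table that met the same level had a median of 49.4 TPM, and 6 members were among the 100 highest genes. Together the members made up 2.31% to 2.86% of all TPM in the tolvaptan plus dDAVP libraries and 2.52% to 2.72% in the dDAVP alone libraries.

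**Figure D1:**
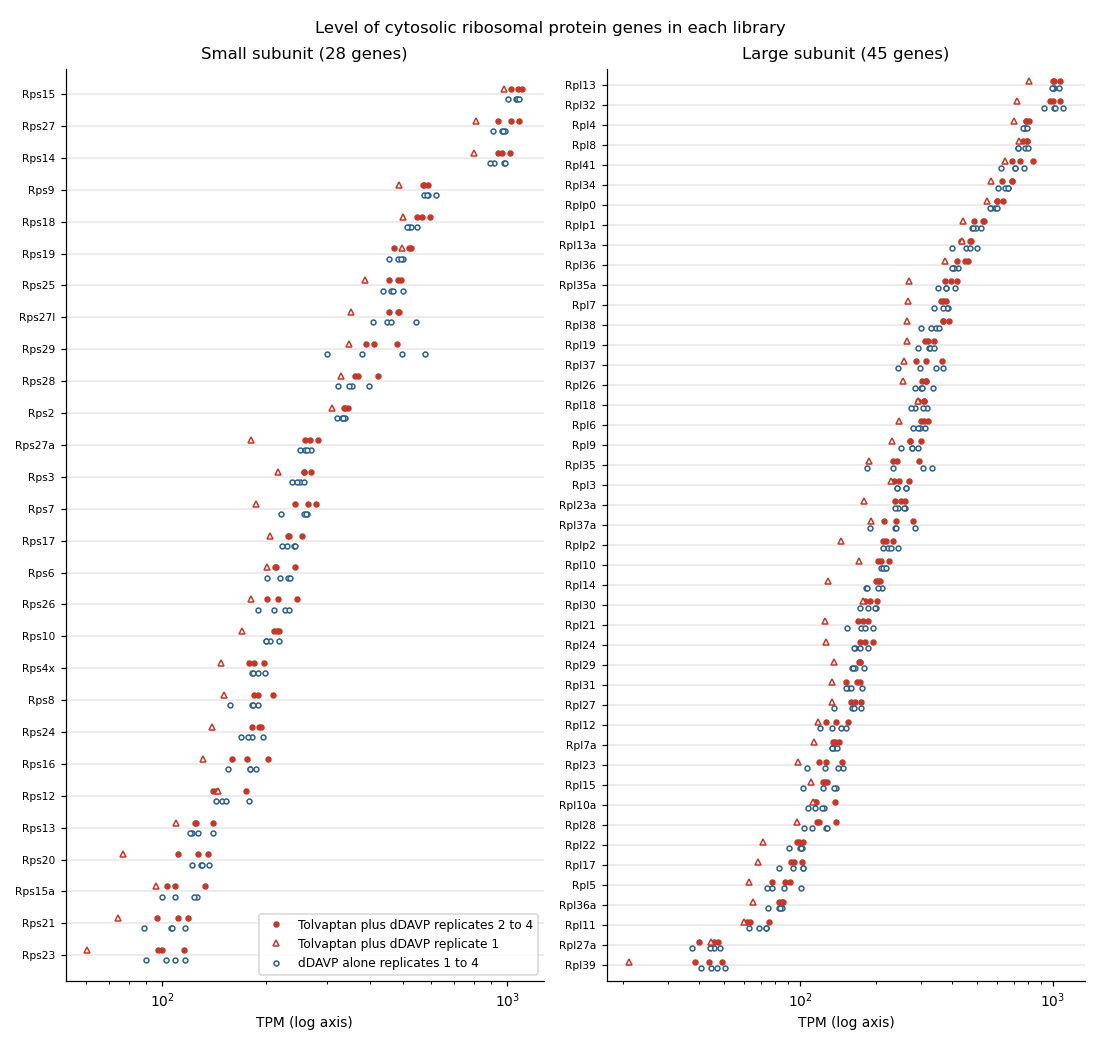
Level of 73 of the 76 genes in each library on a log TPM axis, 28 small subunit genes at left and 45 large subunit genes at right, with filled red circles for tolvaptan plus dDAVP replicates 2 to 4, open red triangles for its replicate 1 and open blue circles for the 4 dDAVP alone libraries. Rpl39 stands lowest in the large subunit panel and Rps23 in the small subunit panel, and the triangle is the lowest symbol for 58 genes.

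Rps15, a protein of the small subunit head, had 979, 1029.9, 1106 and 1076 TPM with tolvaptan plus dDAVP and 1059.8, 1066, 1083 and 1003 TPM with dDAVP alone. Its groups overlapped widely. Other genes with high levels were Rpl13 at a mean of 995 TPM, Rpl32 at 978 TPM, Rps27 at 962 TPM and Rps14, whose haploinsufficiency underlies the anemia of the human 5q- syndrome, at 939 TPM. In these 4 genes replicate 1 of tolvaptan plus dDAVP was the lowest of the 8 libraries, at 806, 719, 810.2 and 800.3 TPM, and the other 7 libraries ran from 895 TPM (Rps14) upward.

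The same library was low across the family. In tolvaptan plus dDAVP replicate 1, 72 of the 76 members were below their own mean over the 8 libraries, with a median deviation of -0.25 on the log2 scale and the lowest value at -0.996 (Rpl39). Rps19 and Rpl27a were among the 4 members above their own mean in that library. In replicates 2, 3 and 4 of the group, 38, 1 and 20 members were below their mean, with median deviations of -0.00051, 0.12 and 0.04. In dDAVP alone replicates 1, 2, 3 and 4 the counts were 23, 22, 21 and 62, with median deviations of 0.03, 0.05, 0.04 and -0.08. Replicate 1 of tolvaptan plus dDAVP or replicate 4 of dDAVP alone was thus the lowest library for 72 members, 58 in the first and 14 in the second. Tolvaptan plus dDAVP replicate 1 was also the library with the fewest counts (41179670), the highest principal cell marker sum (11944 TPM) and the lowest sum of acute stress genes, at 513 TPM against 665 to 1674 TPM in the other libraries of its group and 817 to 1399 TPM with dDAVP alone, and the part of these in the low values was not tested.

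Summed over the family, the level was 23132, 26305, 28599 and 27167 TPM with tolvaptan plus dDAVP (26301 ± 2315 TPM, SD, n = 4) and 27181, 27093, 26815 and 25201 TPM with dDAVP alone (26572 ± 928 TPM, SD, n = 4). The groups overlapped, and the difference between their means was smaller than either SD. Without replicate 1 the tolvaptan plus dDAVP mean was 27357 ± 1159 TPM (SD, n = 3). Small and large subunit sums ran in parallel, at 10806 ± 969 and 15495 ± 1347 TPM with tolvaptan plus dDAVP and 10924 ± 405 and 15648 ± 532 TPM with dDAVP alone. In bulk RNA, fewer cells of a type and less RNA per cell cannot be told apart.

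**Figure D2:**
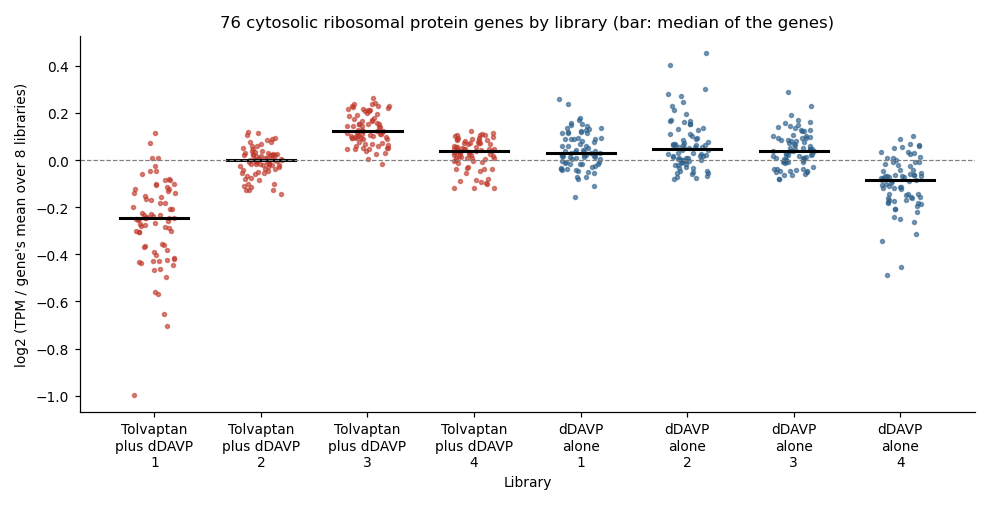
Each point is one of the 76 genes, as the log2 ratio of its TPM in a library to its own mean over the 8 libraries, with the 4 tolvaptan plus dDAVP libraries (red) left of the 4 dDAVP alone libraries (blue) and a bar at the median of the genes. The median is lowest in tolvaptan plus dDAVP replicate 1 (-0.25) and next lowest in dDAVP alone replicate 4 (-0.08).

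Tolvaptan plus dDAVP was compared with dDAVP alone by edgeR's quasi-likelihood test over 14772 genes, with Benjamini-Hochberg adjustment. Of the 76 members 0 passed an adjusted p of 0.05, against 0.399% of all genes tested (59 genes). The lowest adjusted p was 0.621 (Rps9, log2 fold change -0.14). No member had an unadjusted p under 0.05 (0 of 76, against 11.18% of all genes). DESeq2 and limma on log2(TPM + 1) also called 0 members. Among all genes tested DESeq2 called more than edgeR and limma called fewer, with the counts given in the last section. The log2 CPM (counts scaled to library size) of the 2 groups overlapped for every member, whereas 7.76% of all genes tested did not overlap. The direction was nevertheless mostly the same: 72 of 76 members had a log2 fold change below 0 and the median was -0.10, against 51.73% of all genes below 0 and a median over all genes of -0.0048. Without replicate 1 of tolvaptan plus dDAVP, 27 of 76 members were below 0 and the median was 0.01, and 0 members were called against 0.555% of all genes (82 genes). The direction turned back when the other low library, dDAVP alone replicate 4, was also left out, a choice made after seeing the data: 58 of 76 members were then below 0 and the median was -0.04. On log2(TPM + 1) with all libraries, 57 of 76 were below 0 and the median was -0.035. The log2 fold change was higher without tolvaptan plus dDAVP replicate 1 for each of the 76 members, by up to 0.23 (Rpl39), and 45 changed sign. The 2 subunits gave close values, with medians of -0.10 for small and -0.09 for large subunit genes in all libraries and of 0.02 and 0.0091 without replicate 1.

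Among the 76 members, the 95% confidence interval of the log2 fold change lay within a 1.5-fold change in either direction for 71 and within a 1.25-fold change for 23. The 5 members whose interval reached 1.5-fold were Rps29, Rpl35, Rps21, Rps23 and Rpl39. The median standard error was 0.12 for the members and 0.08 for all genes tested.

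**Figure D3:**
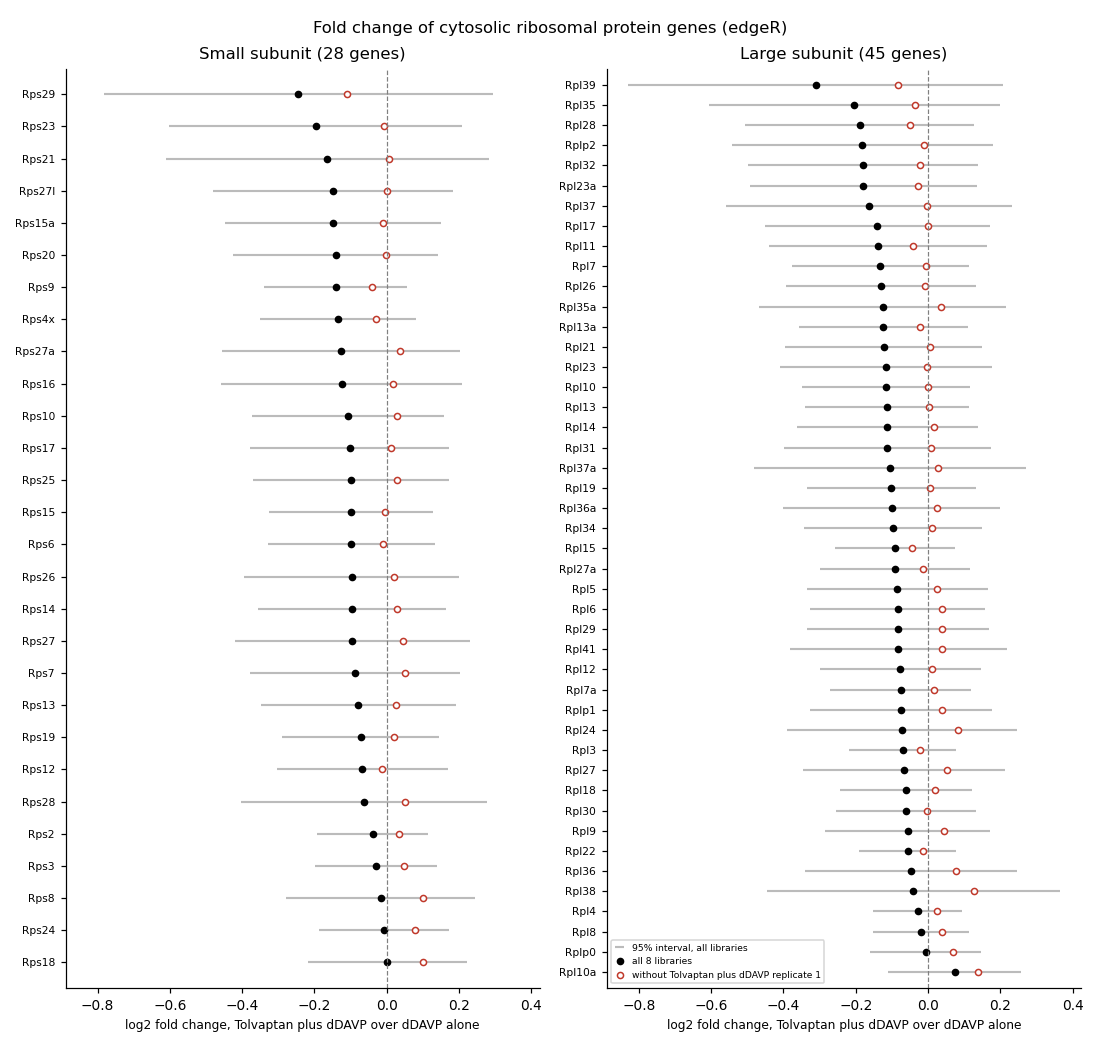
Log2 fold change of tolvaptan plus dDAVP over dDAVP alone for 73 of the 76 genes from edgeR, 28 small subunit genes at left and 45 large subunit genes at right, with filled points and grey 95% intervals for all 8 libraries and open red points without tolvaptan plus dDAVP replicate 1. Filled points lie below 0 for 71 of the 73 genes and open points for 27, and every interval spans 0.

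The most negative values belonged to Rpl39, Rps29, Rpl35, Rps23, Rpl28 and Rplp2. Rpl39, a very short protein at the peptide exit tunnel of the large subunit, had 21.0, 43.6, 49.1 and 38.5 TPM with tolvaptan plus dDAVP and 44.5, 50.6, 47.2 and 40.5 TPM with dDAVP alone. Replicate 1 was far below the rest, while the other 7 libraries overlapped. Its log2 fold change was -0.31 ± 0.24 (SE) (adjusted p = 0.679, edgeR), and -0.08 without replicate 1. It was also the least counted member, with 149 expected counts in its lowest library. Rps23, which contributes to the decoding center of the small subunit, had 60.6, 100.1, 115.6 and 96.9 TPM with tolvaptan plus dDAVP and 116.7, 102.7, 108.7 and 89.5 TPM with dDAVP alone. Only replicate 1 lay outside the common range, and the log2 fold change of -0.20 ± 0.19 (SE) (adjusted p = 0.747, edgeR) became -0.0080 without it. Rplp2, an acidic stalk protein that recruits elongation factors, had 144.9, 219.4, 233.0 and 212.8 TPM with tolvaptan plus dDAVP and 243.4, 223.0, 229.7 and 213.8 TPM with dDAVP alone. Its log2 fold change was -0.18 ± 0.17 (SE) and became -0.01 without replicate 1. Rps21, a small subunit protein, was the remaining gene among the 4 that moved most, with a log2 fold change of -0.17 with all libraries and 0.0068 without replicate 1.

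Rps29, a zinc-binding protein of the small subunit, differed from these in that its spread was also large within dDAVP alone. It had 347, 391, 478 and 411 TPM with tolvaptan plus dDAVP and 378, 578, 495 and 301 TPM with dDAVP alone. The highest and lowest dDAVP alone libraries differed 1.92-fold, more than for any other member. Rpl35, a large subunit protein near the exit tunnel, had 187.2, 232.6, 295.1 and 242.1 TPM with tolvaptan plus dDAVP and 233.0, 332.8, 307.5 and 183.8 TPM with dDAVP alone, a 1.81-fold spread within the second group. In both genes dDAVP alone replicates 2 and 3 and tolvaptan plus dDAVP replicate 3 stood high, and dDAVP alone replicate 4 stood lowest. The log2 fold changes were -0.24 ± 0.25 (SE) for Rps29 and -0.20 ± 0.18 (SE) for Rpl35, and became -0.11 and -0.04 without tolvaptan plus dDAVP replicate 1. Rpl37 and Rpl37a, picked out after their values were seen, had a similar spread, at 1.505-fold and 1.511-fold between dDAVP alone libraries. At the other end, Rps2, Rpl8 and Rpl4 had standard deviations of log2 TPM over the 8 libraries of 0.05 to 0.06, against 0.41 for Rpl39. Rpl28, another large subunit protein, had nearly equal mean TPM in both groups. The means were 117.6 ± 16.9 TPM with tolvaptan plus dDAVP and 117.7 ± 12.04 TPM with dDAVP alone (SD, n = 4 each). Its log2 fold change was -0.19 ± 0.15 (SE) on counts, and -0.0098 with the length offsets described below (all libraries).

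Rpl10a, Rps18, Rplp0 and Rps24 were among the 6 members with the most positive values, which were near 0. Rpl10a, which forms the L1 stalk of the large subunit, had 112.3, 115.0, 138.0 and 115.4 TPM with tolvaptan plus dDAVP and 114.8, 124.1, 121.7 and 107.4 TPM with dDAVP alone. Replicate 3 of the first group stood above the rest, and the log2 fold change was 0.07 ± 0.08 (SE) (adjusted p = 0.798, edgeR). The log2 fold change was 0.0018 for Rps18, -0.0065 for Rplp0 (the base of the acidic stalk) and -0.0068 for Rps24, in which mutations cause Diamond-Blackfan anemia in humans. Without tolvaptan plus dDAVP replicate 1 the values were 0.14 for Rpl10a, 0.10 for Rps18, 0.07 for Rplp0 and 0.08 for Rps24.

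Effective length, the number of positions from which a fragment can start, enters TPM as a divisor, and it was low for these genes. The ratio of expected count to TPM gives it up to a constant per library. The reference was the median of 8898 genes that had a mean of 10 TPM or more and also passed a minimum count in every library. Relative to this median, the members had a median effective length of 0.192, from 0.0537 (Rps27) to 0.673 (Rps3). Of the 76 members, 67 fell into the shortest decile of these genes. The 823 other genes of that decile had median log2 TPM deviations of -0.13, -0.02, 0.06 and 0.05 in tolvaptan plus dDAVP replicates 1 to 4 and of 0.05, 0.0060, -0.00048 and -0.05 in dDAVP alone replicates 1 to 4. The longest decile (890 genes) went the other way in tolvaptan plus dDAVP replicate 1, at 0.14. The members' median deviation in that library, -0.25, was thus of the same sign as that of other genes in the shortest decile and larger in size. Nuclear genes for respiratory chain and ATP synthase subunits, with a median relative effective length of 0.151, had a median deviation of -0.19 there. The part of transcript length in the members' deviation was not tested. Among the members themselves, the 38 shorter ones had a median deviation of -0.25 and the 38 longer ones of -0.25. Spearman rho between length and this deviation was 0.01 across 76 genes, which share their libraries. Between length and log2 fold change rho was 0.21. With 67 of 76 members in 1 decile, these values cover little of the range of length over all genes and cannot show a trend across deciles. In raw counts the members made up 0.505%, 0.662%, 0.743% and 0.670% of the library with tolvaptan plus dDAVP and 0.684%, 0.713%, 0.702% and 0.616% with dDAVP alone. In tolvaptan plus dDAVP replicate 1 the members' median log2 deviation was -0.48 in CPM, against -0.25 in TPM. Their relative effective length deviated there by a median of -0.21 on the log2 scale. The main edgeR fit on counts does not correct for effective length. With each gene's effective length in each library entered as an offset, a fit added after the data were seen, the median log2 fold change was -0.04 with 61 of 76 members below 0, and without replicate 1 of tolvaptan plus dDAVP it was 0.03 with 17 of 76 below 0.

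**Figure D4:**
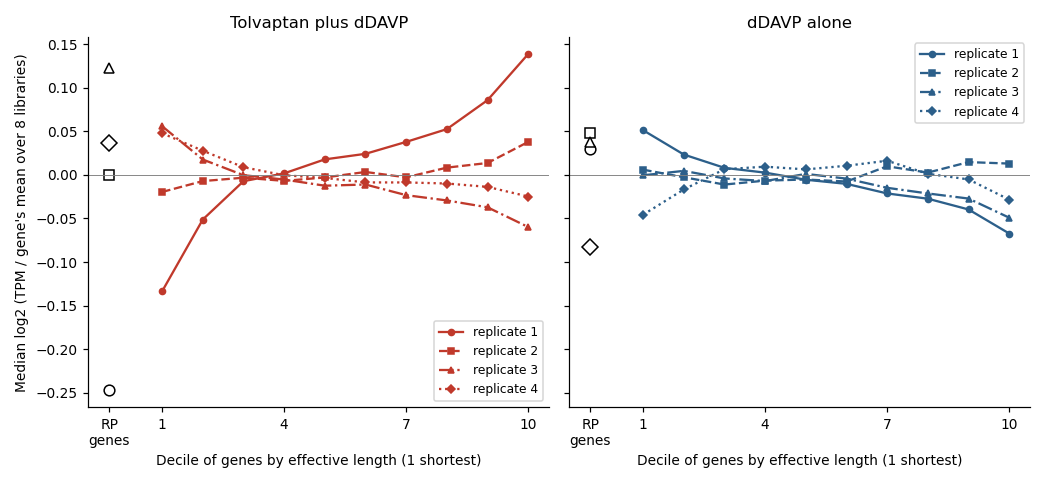
Median log2 ratio of TPM to each gene's mean over the 8 libraries, by decile of relative effective length for genes other than the 76 (colored lines) and for the 76 ribosomal protein genes (RP genes, open black symbols of the same shape), with tolvaptan plus dDAVP at left and dDAVP alone at right. Tolvaptan plus dDAVP replicate 1 runs from -0.13 in the shortest decile to 0.14 in the longest, and its RP genes lie at -0.25.

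Copies of these genes and other shared sequence limit how far a single member can be read. Of all 50-base words in a member's GENCODE M21 transcripts, a median of 38.4% also occurred in another annotated gene on either strand, up to 95.09% for Rpl35, and 26 members shared at least 50%. Any annotated gene was counted, not only copies. For Rpl35 the gene that shared most was Wdr38, at 58.97% of the words. Of the 322 ribosomal protein pseudogene rows (names with -ps), 31 averaged 1 TPM or more, and together they held 447 to 513 TPM per library. The highest were Rps18-ps6 at a mean of 136 TPM, Rpsa-ps10 at 79.4 TPM and Rpl3-ps1 at 51.2 TPM. Genes without -ps in their names are outside this sum, and some that shared words with a member had means as high. Among these were Gm9625 (shared with Rplp0) at 134 TPM and Gm10076 (Rpl41) at 107 TPM. Gm14303 (Rps29) had 104 TPM and Gm15772 (Rpl26) 100 TPM. Among protein pairs at 80% identity or more, Rpl36al and Rpl36a encode proteins identical to each other, at means of 365 and 80.6 TPM, and Rps27rt and Rps27 are likewise identical, at 8.25 and 962 TPM. Rps27l, whose transcription p53 activates in human cells, shared 96.4% of residues with Rps27 and averaged 455 TPM. Rpl10, which joins the large subunit late in its assembly, and Rpl39 had the low copies Rpl10l (98.6% identity, 0.0113 TPM) and Rpl39l (94.1% identity, 0.0138 TPM). The log2 fold changes of these members with all libraries were -0.10 for Rpl36a, -0.10 for Rps27, -0.15 for Rps27l and -0.12 for Rpl10, with adjusted p from 0.739 (Rpl10) to 0.860 (Rps27) by edgeR. Values of single members with high sharing remain uncertain, since reads of shared sequence may have been split between genes.

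Of the genes that work with the ribosome, none in the following 3 lists was called by edgeR. Over all genes 0.399% were called and 51.73% had a log2 fold change below 0. Of 9 further ribosomal protein genes that the name pattern leaves out 0 were called, and their median log2 fold change was -0.08, or 0.02 without tolvaptan plus dDAVP replicate 1. Rack1, a scaffold on the small subunit, had nearly equal means, at 354 ± 17.1 TPM with tolvaptan plus dDAVP and 353 ± 10.4 TPM with dDAVP alone (SD, n = 4 each). The extremes of that list were Rpl22l1 at a log2 fold change of -0.17 and Rpl7l1 at 0.04. Of 32 translation factors 0 were called, the extremes being the RNA helicase Eif4a1 at -0.15 and the scaffold Eif4g1 at 0.14, and the median was -0.03. Of 39 ribosome biogenesis genes 0 were called, from Wdr12, a factor in large subunit maturation, at -0.19 to the small subunit processing factor Tsr1 at 0.22 (adjusted p = 0.101, edgeR), with a median of 0.02 against -0.10 for the ribosomal proteins themselves. Without tolvaptan plus dDAVP replicate 1 these medians were 0.04 and 0.01, and the median relative effective lengths of the 2 lists were 0.871 and 0.192. These 3 lists together with the members had no gene past the threshold in either direction.

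The lists of protein subunits of mitochondria held mostly short transcripts as well. Of 78 mitochondrial ribosomal protein genes 0 were called (0.399% of all genes) and 65 were below 0 (51.73% of all genes), and their median log2 fold change was -0.05, or 0.01 without tolvaptan plus dDAVP replicate 1. The extremes were Mrpl52 at -0.17 and Mrpl2 at 0.08. Of 52 nuclear genes for respiratory chain and ATP synthase subunits 0 were called and 49 were below 0, with a median of -0.10 and 0.02 without that library, from Cox7c at -0.22 to Atp5l at 0.10. Their median relative effective lengths were 0.349 and 0.151, against 0.192 for the cytosolic ribosomal protein genes.

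Upstream of ribosomal protein translation and downstream of ribosomal stress, one gene in each list was called. Of all genes tested, 0.399% were called and 51.73% had a log2 fold change below 0. The 24 genes of mTORC1 and S6 kinase signaling had a median log2 fold change of 0.02, with 10 below 0. Among them 1 fell and 0 rose. Myc, a transcription factor that drives ribosome biogenesis, had 176, 234, 227 and 205 TPM with tolvaptan plus dDAVP and 339.9, 347, 359 and 395 TPM with dDAVP alone (log2 fold change -0.79, standard error 0.09, adjusted p = 0.0029, edgeR). These TPM values did not overlap, and in log2 CPM 7.76% of all genes tested did not overlap. The largest positive value in the list was that of Tsc1, which restrains mTORC1, at 0.44 (adjusted p = 0.0757 with all libraries and 0.0303 without tolvaptan plus dDAVP replicate 1, edgeR). The 14 genes of p53 and ribosomal stress had a median log2 fold change of -0.02, with 8 below 0. Among them 1 fell and 0 rose. That was Plk2, a kinase induced by p53 in human cells, with 162.2, 162.0, 157.8 and 147.7 TPM with tolvaptan plus dDAVP and 256, 258, 264 and 272 TPM with dDAVP alone (log2 fold change -0.74, standard error 0.05, adjusted p = 1.2e-05, edgeR). Cdkn1a, the p53-induced inhibitor of cyclin-dependent kinases, had 324, 342, 354 and 345 TPM with tolvaptan plus dDAVP and 416, 402, 429 and 391.7 TPM with dDAVP alone, at a log2 fold change of -0.29 (adjusted p = 0.0559 with all libraries and 0.0307 without tolvaptan plus dDAVP replicate 1, edgeR). Gdf15, a secreted stress cytokine, had -0.66 (adjusted p = 0.0920, edgeR). These 2 genes were named after their values were seen. The largest positive value there was 0.10 (Sesn2). The ribosomal proteins that hold p53's inhibitor Mdm2 in check, Rpl5 and Rpl11, had 62.7, 87.3, 91.3 and 77.4 TPM (Rpl5) and 59.8, 61.6, 75.1 and 63.4 TPM (Rpl11) with tolvaptan plus dDAVP. With dDAVP alone they had 77.7, 101.3, 86.1 and 73.8 TPM (Rpl5) and 68.6, 73.5, 73.4 and 62.8 TPM (Rpl11), and neither passed the test.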

How the data were processed

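Sample titles gave the group and replicate of each library (4 per group). The authors prepared cDNA by SMARTer and tagmented it with Nextera XT, which does not mark strand, and per the labels quantified paired-end reads with STAR and RSEM (versions not given in the sources used here). The authors deposited expected counts without normalization and TPM values, which are corrected for effective length. Deposited tables of the authors' own DESeq2 results (fold changes and p-values) and of term enrichment were not used.

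After rounding of expected counts, edgeR 4.0.16 under R 4.3.3 was fitted to genes whose count reached 10 in 4 or more libraries (TMM, quasi-likelihood, no covariate, two-sided, Benjamini-Hochberg threshold of 0.05). The study's DESeq2 (1.42.0) and limma 3.58.1 were alternatives. The main edgeR fit was tested on simulated counts. Every pair of libraries differed by more than sampling noise (chi-square of at least 8.08 per degree of freedom). Pairs that included tolvaptan plus dDAVP replicate 1 had 30.49 to 48.11, and the other pairs had at most 24.52.

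The members and gene lists were chosen with earlier results of these data known. Members named were the 6 with the highest mean TPM, the 2 nearest the threshold on each side, the 6 most negative and 6 most positive log2 fold changes, any called, the 4 that moved most without tolvaptan plus dDAVP replicate 1, and those with a copy at 80% protein identity or more; for other lists, the extremes and called genes. Some members are not reported here by name; they stayed in every fit, count and median. Length offsets and dropping 2 libraries together were added after seeing the data. GENCODE M21 (GRCm38) and RefSeq (GRCm38.p6) are not the study's Ensembl annotation.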

Additional observations from a re-analysis of the deposited data

Results flagged for a closer look

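In 66 groups of 4 values checked (members named, family sums and gene lists), 5 held a library far from the other 3, where chance gives about 1 in 20. Rpl10a had 137.98 TPM in tolvaptan plus dDAVP replicate 3, with the nearest of the other libraries of its group at 115.38 TPM. Rpl36a had 65.39 TPM in tolvaptan plus dDAVP replicate 1, with the nearest at 82.84 TPM. The mean log2 CPM of the ribosome biogenesis genes was 6.48 in tolvaptan plus dDAVP replicate 1, with the nearest at 6.59. In dDAVP alone replicate 4 the small subunit genes summed to 10322 TPM, with the nearest at 11067 TPM, and the mean log2 CPM of the mitochondrial ribosomal protein genes was 5.55, with the nearest at 5.65.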

How the results depend on the processing

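No member was called under any alternative run (RLE and upper-quartile factors, TMM without the members, DESeq2, limma on log2 TPM with pseudocounts of 1 and 0.1, no filter, filterByExpr, maximum TPM above 10, replicate block, each library left out, membership at a mean TPM of 1 or 100, both libraries dropped, length offsets). The median log2 fold change of the members was -0.10 and ran from -0.19 (without tolvaptan plus dDAVP replicate 3) to 0.014 (without tolvaptan plus dDAVP replicate 1) with each library left out; it was 0.028 with length offsets and without tolvaptan plus dDAVP replicate 1, and below 0 in every other setting. The count over all genes, 59, was 337 with DESeq2, 22 and 28 with limma at pseudocounts of 1 and 0.1, 256 without a filter, 20 to 82 with each library left out, 99 without tolvaptan plus dDAVP replicate 1 and dDAVP alone replicate 4, and 33 with length offsets and without tolvaptan plus dDAVP replicate 1; the cause was not tested. With the replicate block it was 17 and the members' median was -0.11; deviations of same-numbered libraries correlated at -0.01 to 0.16, so the numbers were not taken to pair the libraries. With each library left out, the log2 fold change ran from -0.19 to 0.0026 for Rpl13, -0.19 to 0.027 for Rps14, -0.066 to 0.078 for Rps24, -0.041 to 0.069 for Rplp0 and -0.20 to 0.00096 for Rpl10. With length offsets and without tolvaptan plus dDAVP replicate 1 it was 0.018 for Rps15, 0.0090 for Rpl13, 0.079 for Rps27, 0.042 for Rps14, 0.012 for Rpl27a, 0.077 for Rpl28, 0.068 for Rplp0, 0.052 for Rps21, 0.020 for Rps27l and 0.052 for Rpl36a. On log2 TPM, Rpl27a had 0.0209 at a pseudocount of 1 and 0.0215 at 0.1. Without tolvaptan plus dDAVP replicate 1 and dDAVP alone replicate 4, Rplp0 had 0.083 and Rpl10 0.0063. Of 462 alternative values of the 22 members chosen by the naming rule, 427 moved by less than their standard error. A value could change sign within that limit, and 45 of the 76 members changed sign without tolvaptan plus dDAVP replicate 1. All alternatives reuse the same libraries.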
